A study of Mus musculus with 31 samples.

Results

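Lungs of mice taken 18 h after an injection of saline were compared with lungs taken 4 h after the same injection, across all genes on the array. The comparison holds 4 of the 31 arrays of the study, 2 for each time, and they were chosen by the treatment and time that the labels give. The mice of both groups were female C57BL/6 animals (C57Bl/6J in the treatment protocol), 6 weeks old and anaesthetised with xylazine and ketamine. Each received 200 µl of physiological serum through the tail vein. Oleic acid, the agent that injured the lungs of the other mice in the study, was given to none of them. Both groups share the anaesthesia and the injection, so no untreated lung enters the comparison. The clock time at which the mice were injected or killed is not given in the sources used here. The labels do not state that the 2 arrays of a time are separate mice, so p-values measure the spread between these arrays, which may be technical. The comparison asks how far the saline lung itself differs between the early and the late time of the study.

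The mammalian circadian clock is a transcriptional loop that runs in nearly every cell, the lung included. The activators Clock and Arntl (also called Bmal1) drive the genes of their own repressors, the Period and Cryptochrome proteins, and of the nuclear receptors Nr1d1 and Nr1d2, which shut Arntl off again while the related ROR receptors switch it on. Output factors such as Dbp, Tef and Hlf carry the rhythm to other genes. Glucocorticoids, the adrenal steroids released daily and under stress, act on lung cells through the glucocorticoid receptor and induce a well-known set of genes, Per1 among them. Cirbp and Rbm3 encode RNA-binding proteins whose RNA is known to go up with mild cooling and down with warming.

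The signal of each spot was expressed as log2 relative to the 75th percentile of its array, so a value of 0 is a signal at that percentile and a difference of 1 is a factor of 2. All 4 arrays lay on 1 slide, both 4 h arrays in its first row and both 18 h arrays in the second, so position on the slide and time cannot be told apart. Lung markers were bright on every array. Sftpc, the surfactant protein of alveolar type 2 cells, read 10.24 and 10.22 at 4 h and 9.99 and 9.29 at 18 h. Scgb1a1, the secretory protein of club cells, read 10.32 and 10.33 at 4 h and 10.05 and 9.42 at 18 h. The arrays of one time correlated with r = 0.979 at 4 h and r = 0.963 at 18 h over all features, against 0.950 to 0.957 between times. Both 18 h arrays stood apart in a way of their own. On replicate 2 a share of 77.5% of the spots lay well above background, against 54.1% to 56.8% on the other 3. On replicate 1, liver genes were high. Of 28 liver marker genes, listed after acute phase genes had been seen on that array, 27 had a named probe, and all 27 were highest there. Alb, serum albumin, read 1.91 and 0.52 at 4 h, 6.00 on 18 h replicate 1 and 2.55 on replicate 2. The mean over the 27 was -0.77 and -1.74 at 4 h, 2.74 on 18 h replicate 1 and -0.58 on replicate 2, and it ran from -0.68 to 3.92 on the 9 other saline arrays. The part of liver RNA, and of the dim end of replicate 2, in the results was not tested.

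A total of 25212 features (a gene with its brightest kept probe, or a probe with no current gene symbol) passed the filter on dim probes, 15455 of them with a current symbol. In limma's fit of the 4 arrays no feature passed an adjusted p of 0.05, a share of 0%. The smallest adjusted p was 0.064, shared by 44 features. An unadjusted p under 0.05 was found for 3990 features (15.8%), 1868 higher and 2122 lower at 18 h. So no gene is called changed by the 4 arrays alone. A fit over all 13 saline arrays of the study in 6 time groups, which estimates the spread from more arrays, called 55 features higher (0.218%) and 114 lower (0.452%) at 18 h than at 4 h, and the verbs rose and fell are used for these 169 features alone. All 169 were separated between the times: both 18 h arrays lay on the same side of both 4 h arrays. Without the 3 arrays at 1 h this fit called 40 features, and with slide as a random block 119. Of the 30 genes named here that passed in the fit of 13 (Dclk3 and Fzd9, at background at one of the times, included), 22 also passed with the slide block. Without the 1 h arrays 8 did: Per1, Cirbp, Klf9, Ddit4, Foxo3, Ppp1r3c, Tent5b and Sphk1. The calls of the other 22, Cry2, Usp2 and Pdk4 among them, therefore rest on the 1 h arrays being in the fit. The separation is common. It held for 13275 features (52.7%) in either direction. It held for 4950 features (19.6%) upward and 8325 (33%) downward, and for 1498 (5.94%) upward and 942 (3.74%) downward with a difference of at least 1.

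**Figure D1:**
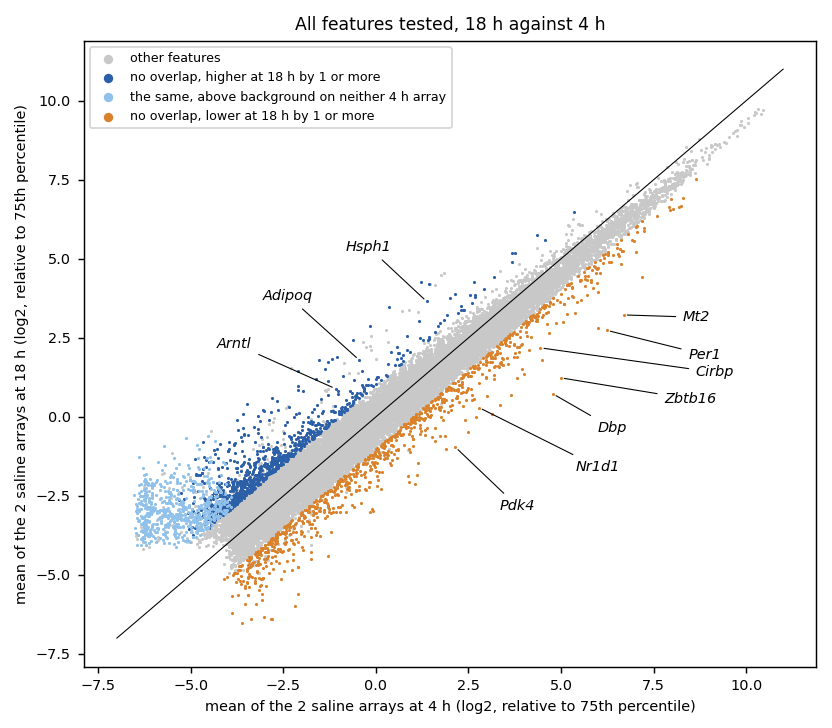
Mean log2 signal of the 2 saline arrays at 18 h (y axis) against the mean of the 2 at 4 h (x axis) for the features tested, both against the 75th percentile of each array, with the line of equality. Orange points are lower and blue points higher at 18 h by at least 1 with no overlap between the times. Pale blue points, at the dim left edge, lay above background on neither 4 h array.

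The plot of both means shows that the difference depended on brightness. Among the 619 features with a mean above 6, the median difference was -0.54 and 96.9% were lower at 18 h. Among the 5601 with a mean from 0 to 2 the median was -0.13, and among the 6854 with a mean from -4 to -2 it was 0.14. The 628 features under -4 had a median of 2.01. The filter kept features above background at 1 time alone, so this median can rest on readings at background at the other time. How far the filter set it was not tested. Of the 1498 features higher by at least 1, 621 lay above background on neither 4 h array, so for them only a lower bound exists. Of the 942 lower ones, 72 lay above background on neither 18 h array. Among the 22503 features above background on all 4 arrays, 576 were higher and 749 lower by at least 1 without overlap. The split between the directions therefore turned with the filter, and it also turned with the scaling: quantile normalization gave 888 higher and 1956 lower.

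Clock genes were among the largest differences between the times. Of 20 core clock genes listed, 18 were measured, and in 11 of them (61.1%, against 33% of all features) both 18 h arrays lay below both 4 h arrays. In 3 (16.7%, against 19.6%) they lay above. The median difference of the 18 was -0.71, against -0.09 over all features. None of the 22 clock genes and output factors measured passed in the fit of 4 arrays, and 2 of them, Per1 and Cry2, fell in the fit of 13.

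**Figure D2:**
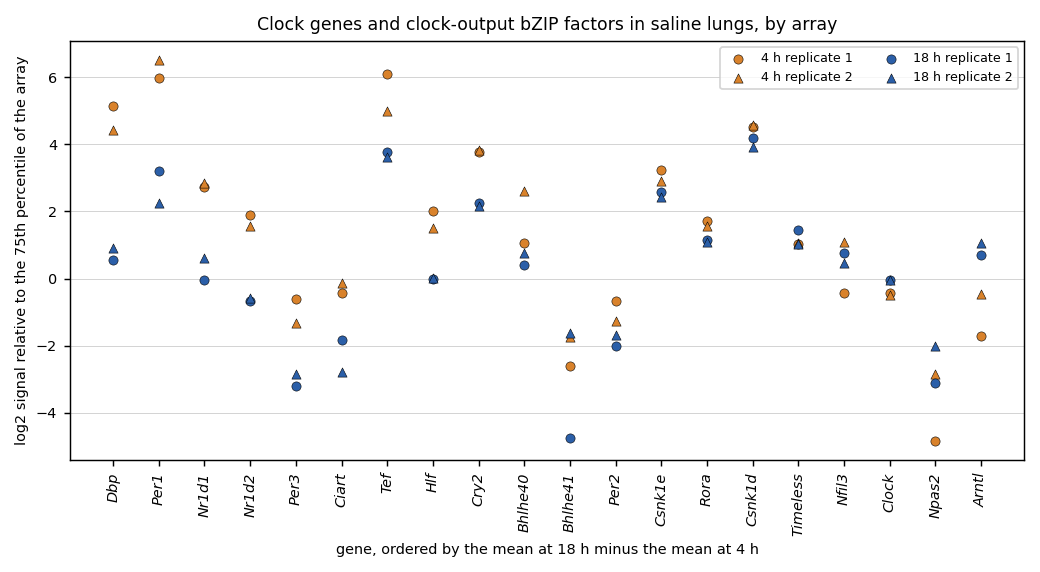
Log2 signal against the 75th percentile of its array (y axis) of 20 of the 22 measured clock genes and output factors (x axis), ordered by difference. Orange symbols are the 4 h arrays and blue symbols the 18 h arrays, circles replicate 1 and triangles replicate 2. From Dbp to Cry2 on the left, blue lies below orange for every gene, and for Arntl on the right it lies above.

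Among the repressors, Per1, which the clock and glucocorticoids both induce, read 5.96 and 6.51 at 4 h and 3.22 and 2.26 at 18 h. Both late values lay far under both early ones. The difference was -3.50 (95% interval -4.55 to -2.45, n = 2 and 2; adjusted p = 0.0695 in limma's fit of 4 arrays), or 11.3-fold, and Per1 fell in the fit of 13 arrays (adjusted p = 0.0135). A second, dim Per1 probe, which read -3.52 and -3.23 at 4 h and -4.07 and -3.56 at 18 h, differed by only -0.45. The bright probe lies at chr11:68923364-68923423 and the dim one at chr11:68919895-68919954 (mm9). Per2 read -0.68 and -1.27 at 4 h and -2.02 and -1.67 at 18 h. Per3 read -0.60 and -1.33 at 4 h and -3.199 and -2.83 at 18 h, a difference of -2.05. Neither overlapped. Cry2, a cryptochrome repressor, read 3.77 and 3.84 at 4 h and 2.24 and 2.15 at 18 h. It fell by 1.61 in the fit of 13 arrays (adjusted p = 0.0388), with a second probe at -1.52. Cry1 and Fbxl21 did not pass the filter on dim probes. Ciart, a further repressor of the activators, read -0.43 and -0.14 at 4 h and -1.83 and -2.80 at 18 h.

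Nuclear receptors of the loop were lower late, and Arntl was higher. Nr1d1, a repressor of Arntl, read 2.72 and 2.84 at 4 h and -0.03 and 0.62 at 18 h. Its relative Nr1d2 read 1.9 and 1.56 at 4 h and -0.65 and -0.57 at 18 h. Both repressors were thus lower on both late arrays, by -2.49 (-3.29 to -1.69) and -2.34 (-3.01 to -1.67), with adjusted p of 0.0724 and 0.0695 in the fit of 4 arrays and 0.0853 and 0.0842 in the fit of 13. Rora, an activator of Arntl, read 1.72 and 1.56 at 4 h and 1.15 and 1.09 at 18 h, also lower on both late arrays. Arntl itself read -1.72 and -0.47 at 4 h and 0.71 and 1.07 at 18 h. Both late values of this activator lay above both early ones, by 1.98 (0.81 to 3.16; adjusted p = 0.206, limma, 4 arrays). Clock, its partner, differed by 0.42 without overlap, and Npas2, which can stand in for Clock, overlapped, with -4.83 and -2.85 at 4 h and -3.12 and -2.02 at 18 h.

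The remaining members of the loop did not pass in either fit. Bhlhe40, a repressor at E-boxes, read 1.05 and 2.62 at 4 h and 0.40 and 0.75 at 18 h, no overlap but with early arrays far apart. Its relative Bhlhe41 read -2.61 and -1.75 at 4 h and -4.74 and -1.63 at 18 h and overlapped. The kinases Csnk1e and Csnk1d, which phosphorylate the Period proteins, differed by -0.56 and -0.50. Timeless differed by 0.20 and overlapped.

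Among the clock genes and output factors measured, the output factor Dbp showed the widest gap. Dbp, an activator at D-boxes, read 5.14 and 4.42 at 4 h and 0.55 and 0.90 at 18 h. The difference of -4.05 (-4.93 to -3.18; adjusted p = 0.064, limma, 4 arrays) is 16.6-fold, and a second probe gave -3.68. In the fit of 13 saline arrays its adjusted p was 0.122. Hlf read 2.02 and 1.501 at 4 h and -0.02 and 0.01 at 18 h. Tef read 6.10 and 5.00 at 4 h and 3.78 and 3.63 at 18 h. These 3 related activators were lower on both late arrays. Nfil3, which represses the same sites, overlapped, with -0.44 and 1.08 at 4 h and 0.75 and 0.45 at 18 h.

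Promoter windows are shown for 3 of these genes, since the clock acts on them through short DNA motifs. The windows come from RefSeq (GRCm38.p6) and run from 250 bases before to 50 after the start of the gene, in the direction of the gene. Capitals mark a match, on either strand, to the E-box CACGTG, the D-box TTATGNAA, the ROR element TAGGTCA, the cyclic AMP response element TGACGTCA or the glucocorticoid response element (ACA and TGT with 3 bases of any kind between, then any base and C). No match in these windows overlapped another. Per1 at chr11:69098699-69098998 on the plus strand, Dbp at chr7:45704997-45705296 on the plus strand and Hlf at chr11:90390868-90391167 on the minus strand read as follows.
Per1: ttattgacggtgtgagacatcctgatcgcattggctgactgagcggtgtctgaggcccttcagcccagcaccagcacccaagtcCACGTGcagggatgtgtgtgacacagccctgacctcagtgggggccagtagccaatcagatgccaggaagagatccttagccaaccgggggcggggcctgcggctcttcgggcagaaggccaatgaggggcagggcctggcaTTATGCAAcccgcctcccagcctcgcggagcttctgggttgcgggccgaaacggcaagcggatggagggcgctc
Dbp: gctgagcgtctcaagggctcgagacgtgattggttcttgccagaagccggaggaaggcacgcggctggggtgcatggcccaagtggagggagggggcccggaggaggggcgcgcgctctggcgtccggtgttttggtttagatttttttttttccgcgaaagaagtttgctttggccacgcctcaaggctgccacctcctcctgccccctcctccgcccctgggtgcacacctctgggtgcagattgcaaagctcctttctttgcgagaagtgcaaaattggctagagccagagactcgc
Hlf: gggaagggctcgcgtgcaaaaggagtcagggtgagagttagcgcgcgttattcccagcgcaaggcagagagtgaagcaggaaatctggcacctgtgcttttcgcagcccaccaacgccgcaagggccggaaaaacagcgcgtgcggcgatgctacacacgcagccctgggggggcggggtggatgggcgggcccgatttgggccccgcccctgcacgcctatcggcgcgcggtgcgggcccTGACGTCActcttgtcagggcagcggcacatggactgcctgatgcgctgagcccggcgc
The Per1 window (the first of 2 listed) holds 1 E-box and 1 D-box, and the Hlf window holds 1 cyclic AMP response element. The windows of Dbp, Nr1d1, Nr1d2 and Cry2 hold none of these letters. Of the 17 clock genes and output factors with a window, 4 hold the E-box and 3 the D-box, against 7.15% and 3.38% of all 32851 windows. Of 19 glucocorticoid-induced genes with a window, 3 hold the glucocorticoid element, against 3.11% of all windows. These counts are a description.

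Genes known to follow the clock in tissues were lower at 18 h in part. Of 24 listed, 22 were measured. In 11 (50%, against 33% of all features) both late arrays lay lower, each by at least 1 (against 3.74% of all features). In 4 (18.2%, against 19.6%) they lay higher, near the share of all features. Usp2, a deubiquitinase, read 1.46 and 1.56 at 4 h and -0.79 and -0.46 at 18 h. It fell by 2.13 in the fit of 13 arrays (adjusted p = 0.0369), the one member that did. Ciart (above) is in this list too. Tspan4, Por, Mthfd1l, Coq10b, Wee1, Herpud1, Lgals4, Tns2 and Tsc22d3 were lower by 1.06 to 1.85 without passing. Por encodes the reductase that feeds electrons to cytochromes P450, and Wee1 a kinase that holds back mitosis. Rasl11a (1.46), Lonrf3 (1.22), Leo1 (0.87) and the chaperone Hspa8 (0.48) were higher on both late arrays. Cys1, Dtx4, Bcl6, Nampt, Fmo2, Slc46a3 and Insig2 overlapped, with differences from -0.20 to 0.46. Nampt, which makes a precursor of NAD, read 1.27 and 0.38 at 4 h and 0.88 and 1.27 at 18 h.

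Across the saline mice of all 6 times, the 18 h arrays held the lowest Dbp, Per1, Nr1d1 and Cirbp of the 13. They also held the lowest Hlf (-0.02 and 0.01, against 0.05 on 1 h replicate 1) and Usp2. Clock was highest there, at -0.03 and -0.04, against -0.08 on 1.5 h replicate 2. For Per2 and Arntl the 18 h arrays did not both hold the extreme. Per2 read -2.02 and -1.67 at 18 h but -2.74 and -2.75 at 24 h. Arntl read 0.90 on 1.5 h replicate 1, above the 0.71 of 18 h replicate 1. Dbp read 4.57 and 4.96 at 3 h and 2.63 and 2.93 at 24 h, so 24 h lay between 4 h and 18 h. Nr1d1 read 3.56 and 3.19 at 3 h and 1.08 and 1.74 at 24 h. Of the 3 arrays at 1 h, replicate 3 differed from the other pair: its Dbp read 5.91 against 1.13 and 1.73. Its Arntl read -1.77 against 0.08 and 0.31. These arrays lie on other slides, so slide and time cannot be told apart there, and the spread of the 1 h group enters the fit of 13 arrays.

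**Figure D3:**
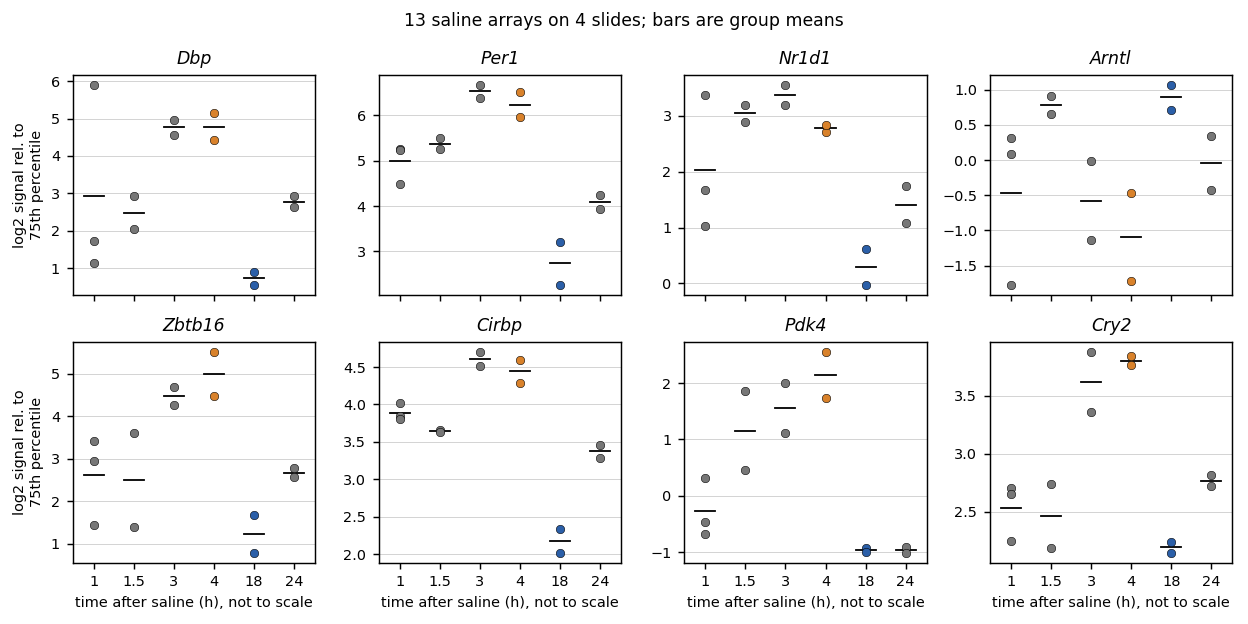
Log2 signal against the 75th percentile of its array (y axis, a range of its own in each panel) of 8 genes in the 13 saline arrays by hours after injection (x axis, not to scale). Points are arrays, orange at 4 h and blue at 18 h, and bars are group means. In the Dbp panel the 18 h arrays, at 0.55 and 0.90, are the lowest, and 1 array at 1 h stands at 5.91.

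Glucocorticoid-induced genes were lower at 18 h almost throughout. All 23 listed were measured, and in 22 (95.7%, against 33% of all features) both late arrays lay below both early ones, in 18 by at least 1. Their median difference was -2.04, against -0.37 for features of a mean level from 4 to 6 and -0.26 from 2 to 4. None passed in the fit of 4 arrays, and 5 (Per1, Klf9, Cebpd, Ddit4 and Map3k6) fell in the fit of 13. Per1 and Tsc22d3 also belong to the clock lists above.

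Transcription factors of the list showed clear gaps. Zbtb16, a zinc finger repressor, read 5.51 and 4.47 at 4 h and 0.79 and 1.68 at 18 h, a difference of -3.76 (-4.97 to -2.54; adjusted p = 0.0725, limma, 4 arrays). Klf9 read 4.54 and 4.82 at 4 h and 2.82 and 2.46 at 18 h. Cebpd read 5.97 and 6.01 at 4 h and 4.22 and 3.69 at 18 h. Both fell by 2.04 in the fit of 13 arrays, with adjusted p of 0.036 and 0.0479. Hif3a, a relative of the hypoxia factors, read 2.18 and 0.05 at 4 h and -1.85 and -1.81 at 18 h, with early arrays far apart.

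Regulators of hormone and growth signalling followed the same direction. Fkbp5, the chaperone that dampens the glucocorticoid receptor, read 4.37 and 1.89 at 4 h and 0.12 and 0.04 at 18 h. Tsc22d3, a leucine zipper protein that mediates anti-inflammatory glucocorticoid action, read 6.10 and 5.31 at 4 h and 4.12 and 3.60 at 18 h. Ddit4, an inhibitor of mTOR signalling, read 5.25 and 4.87 at 4 h and 2.77 and 3.25 at 18 h. It fell by 2.05 in the fit of 13 arrays (adjusted p = 0.0479), and Map3k6, a kinase, fell by 2.57 (adjusted p = 0.0369). Sgk1, a kinase of sodium transport, differed by -1.03, Errfi1, an inhibitor of the EGF receptor, by -2.09, and Cdkn1a, an inhibitor of the cell cycle, by -2.02. For Cdkn1a 1 of 3 kept probes, a dim one, gave 0.83. The metal-binding Mt1 read 7.20 and 7.19 at 4 h and 4.97 and 3.88 at 18 h, and Mt2 read 6.79 and 6.59 at 4 h and 3.94 and 2.51 at 18 h. The 3 metallothioneins measured, Mt3 included (-0.95), were separated in the same direction. At the other end, Lcn2 differed by -0.73, Dusp1 by -0.24 and Sult1a1, which overlapped, by -0.35.

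**Figure D4:**
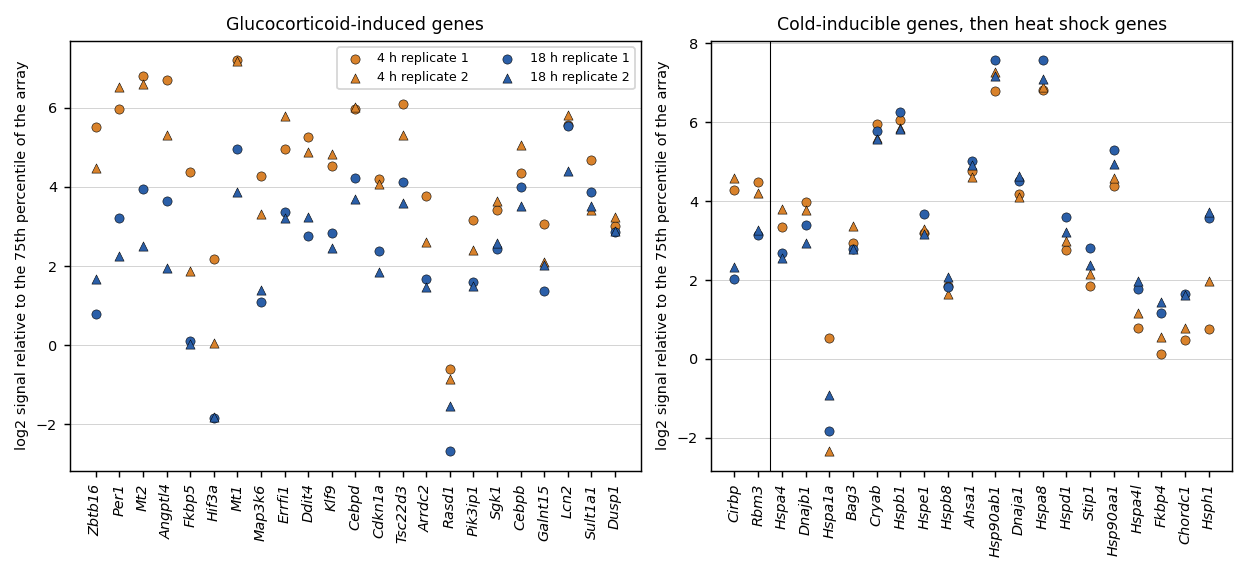
Log2 signal against the 75th percentile of its array (y axes) of 23 glucocorticoid-induced genes (left) and of Cirbp and Rbm3 followed by 19 heat shock genes (right), each ordered by difference. Orange symbols are 4 h and blue symbols 18 h arrays, circles replicate 1 and triangles replicate 2. On the left blue lies below orange for 22 of the 23 genes, and on the right for Cirbp and Rbm3.

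Genes known to answer temperature differed in opposite directions. Cirbp read 4.29 and 4.60 at 4 h and 2.02 and 2.34 at 18 h. The difference was -2.26 (95% interval -2.96 to -1.56; adjusted p = 0.0708, limma, 4 arrays), and Cirbp fell in the fit of 13 arrays with an adjusted p of 0.00657, which a probe of Foxo3 shared as the smallest of that fit. Rbm3 read 4.49 and 4.199 at 4 h and 3.15 and 3.28 at 18 h (adjusted p = 0.0548 in the same fit). A second bright Rbm3 probe gave -1.07 and a further, dim one 0.18. Of 19 heat shock and chaperone genes measured, 10 (52.6%, against 19.6%) were higher on both late arrays and 3 (15.8%) lower. None passed in either fit. Hsph1, a nucleotide exchange factor for Hsp70 chaperones, read 0.76 and 1.98 at 4 h and 3.59 and 3.72 at 18 h, a difference of 2.28 (1.16 to 3.41). Chordc1 (1.01), Fkbp4 (0.96) and Hspa4l (0.91), partners of Hsp90 or Hsp70, were also separated upward. Hspa4 differed by -0.94 on its brightest probe and by 0.67 and 1.36 on the others.

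Genes of fuel use were lower in part. Of 20 genes of fasting and fuel switching measured, 11 (55%, against 33% of all features) were lower on both late arrays, 5 of them by at least 1, and 1 (5%, against 19.6%) higher. Pdk4, the kinase that closes the pyruvate dehydrogenase gate when glucose is spared, read 2.55 and 1.74 at 4 h and -0.92 and -0.998 at 18 h. It fell by 3.10 in the fit of 13 arrays (adjusted p = 0.0388). Irs2, an adaptor of the insulin receptor, read 4.64 and 4.61 at 4 h and 3.20 and 2.71 at 18 h and fell by 1.67 (adjusted p = 0.0388). Angptl4, an inhibitor of lipoprotein lipase that the glucocorticoid list also holds, differed by -3.21, and Klf15, a regulator of amino acid use, by -1.66. Foxo3, a transcription factor held back by insulin, read 0.90 and 0.89 at 4 h and -2.06 and -2.08 at 18 h. That probe fell by 2.96 (adjusted p = 0.00657 in the fit of 13 arrays), and a second Foxo3 probe differed by -0.21. Of 19 genes of fatty acid synthesis, 8 (42.1%, against 19.6%) were higher on both late arrays and 2 lower. Mlxipl, the factor that switches these genes on with glucose, read -0.64 and -0.63 at 4 h and 0.69 and 0.55 at 18 h. Elovl6 and Fads2, enzymes that lengthen and desaturate fatty acids, were higher by 1.06 and 0.94, and Scd1, the main desaturase of stored fat, by 0.88. Thrsp (1.70) belongs both here and to the fat cell markers below. Ppp1r3c, which directs a phosphatase to glycogen, read -0.80 and -0.99 at 4 h and 1.36 and 1.22 at 18 h and rose by 2.18 in the fit of 13 arrays (adjusted p = 0.0135).

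Lists of stress and early response genes differed in their shares. Of 24 immediate early genes measured, 11 (45.8%, against 33% of all features) were lower on both late arrays, 8 of them by at least 1, and none was higher (against 19.6%). None passed in either fit. The mean over the list was 1.93 and 2.65 at 4 h and 1.64 and 1.83 at 18 h, so 4 h replicate 2 carried most of the gap. Jun, a subunit of the AP-1 factor, differed by -1.06, and Ccn2, a matricellular growth factor, by -1.23. Of 14 genes that feed back on NF-kappaB, 2 (14.3%) were lower and 1 (7.14%) higher, both under the shares of all features. Nfkbia, the inhibitor that holds NF-kappaB in the cytosol, read 6.64 and 7.40 at 4 h and 5.42 and 5.05 at 18 h and fell by 1.79 in the fit of 13 arrays (adjusted p = 0.0489). Of 20 targets of the oxidant sensor Nrf2, 7 (35%) were lower and 3 (15%) higher, near the shares of all features. Srxn1, which repairs oxidised peroxiredoxins, read 3.49 and 3.31 at 4 h and 1.88 and 1.82 at 18 h and fell by 1.56 (adjusted p = 0.0388). Gclc, of glutathione synthesis, Txnrd1, of thioredoxin recycling, and Osgin1 differed by -1.48, -1.37 and -1.25 without passing, and Gsta1, a glutathione transferase, by 1.70. Gadd45g, a stress-induced growth arrest gene, differed by -1.55. Of 20 genes of the unfolded protein response, 9 (45%, against 19.6%) were higher and 5 (25%, against 33%) lower, with a median difference of 0.29. Sesn2, a stress-induced sestrin of that list, differed by -1.30. Pmvk, of mevalonate metabolism, fell by 1.497 (adjusted p = 0.0479 in the fit of 13 arrays). Of 24 cholesterol synthesis genes, 7 (29.2%, against 19.6%) were higher and 4 (16.7%, against 33%) lower.

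Markers of blood cells differed between the times. In whole lung a difference in such markers cannot tell fewer cells from less RNA per cell. Of 25 neutrophil markers measured, 16 (64%, against 33%) were lower on both late arrays, 12 of them by at least 1, and 1 (4%, against 19.6%) was higher. The mean over the list was 1.11 and 1.88 at 4 h and 0.69 and 0.40 at 18 h, so 4 h replicate 2 carried more of the gap. Il1r2, the decoy receptor of interleukin 1, read 0.47 and 1.62 at 4 h and -2.35 and -1.93 at 18 h. Mmp8, the collagenase of neutrophil granules, read 0.63 and 0.43 at 4 h and -0.97 and -1.12 at 18 h. Il1r2 fell by 3.18 and Mmp8 by 1.58 in the fit of 13 arrays, with adjusted p of 0.0427 and 0.0388. The alarmin S100a8 read 5.44 and 6.02 at 4 h and 4.74 and 4.204 at 18 h. Retnlg and Clec4e, a lectin receptor, differed by -1.84 and -1.49. The cytokine Il1b read 0.80 and 2.39 at 4 h and 0.32 and 0.23 at 18 h.

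B cell markers went the other way. Of 14 measured, 9 (64.3%, against 19.6%) were higher on both late arrays, 6 of them by at least 1, and none was lower. The mean over the list was -0.53 and 0.22 at 4 h and 0.63 and 0.57 at 18 h, so 4 h replicate 1 carried more of the gap. Ms4a1, the B cell antigen CD20, read 0.29 and 0.95 at 4 h and 2.13 and 1.88 at 18 h and rose by 1.38 in the fit of 13 arrays (adjusted p = 0.0427). Cr2, a complement receptor, read -1.72 and -1.42 at 4 h and -0.04 and 0.10 at 18 h. Fcer2a, a receptor of immunoglobulin E, and Bank1, an adaptor of the B cell receptor, were higher by 1.39 and 1.32. Of 18 T cell markers, 8 (44.4%, against 33%) were lower and none higher, with Lef1 at -1.04. Of 15 natural killer and cytotoxic markers, 7 (46.7%, against 19.6%) were higher and none lower, with the receptor Klre1 at 1.37. The mean over these 15 was -1.19 and -0.37 at 4 h and -0.24 and -0.33 at 18 h, so 4 h replicate 1 carried most of the gap. Their median difference ran from -0.02 to 0.73 in the alternatives run. Of 8 mast cell and eosinophil markers, 5 (62.5%, against 19.6%) were higher, 3 of them by at least 1, and 1 (12.5%, against 33%) was lower. Cpa3, a mast cell protease, was above background on neither 4 h array and was at least 2.84-fold higher at 18 h. None of the T, natural killer and mast cell markers passed in either fit.

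**Figure D5:**
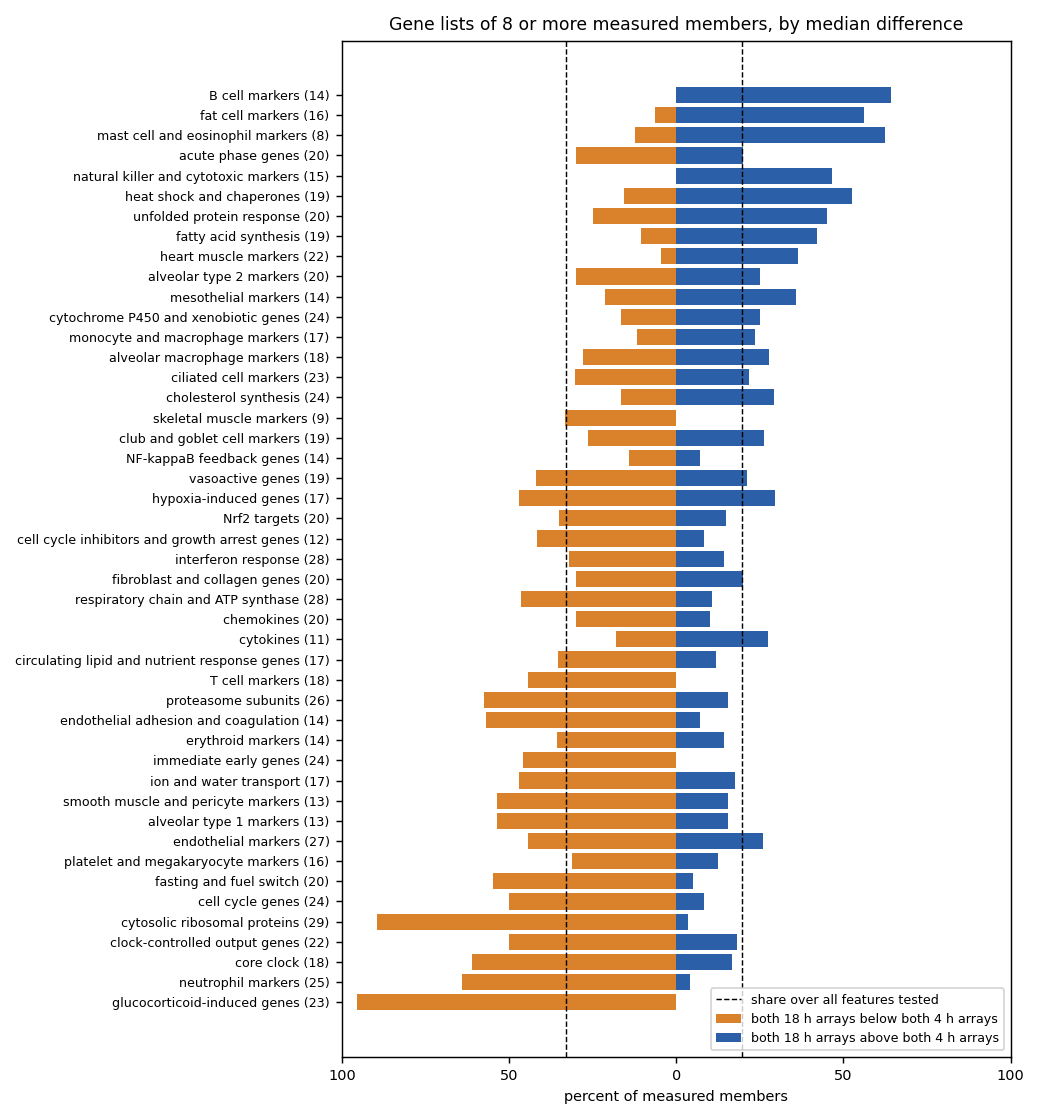
Percent of the measured members (number in brackets) of 46 gene lists whose 2 late arrays both lay below (orange, to the left) or above (blue, to the right) both early arrays, ordered by the median difference of the list. Dashed lines give the same shares over all features, 33% and 19.6%. Glucocorticoid-induced genes are the lowest row, with 95.7% to the left, and B cell markers the highest, with 64.3% to the right.

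Markers of tissue next to the lung also differed. Of 16 fat cell markers measured, 9 (56.2%, against 19.6%) were higher on both late arrays, 7 of them by at least 1, and 1 (6.25%) was lower. Adipoq, the hormone adiponectin, read -0.01 and -0.90 at 4 h and 2.16 and 1.44 at 18 h, a difference of 2.26 (1.18 to 3.33; adjusted p = 0.151, limma, 4 arrays). Retn, resistin, and Adrb3, the adrenergic receptor of fat, were higher by 1.64 and 1.27. Car3, a carbonic anhydrase, was higher by 1.73. Pnpla2, a lipase of stored fat, differed by -1.14. None of these markers passed in either fit, and the mean over the list was 1.68 and 1.00 at 4 h and 2.19 and 1.92 at 18 h. Of 14 mesothelial markers, 5 (35.7%, against 19.6%) were higher and 3 (21.4%, against 33%) lower. Bnc1, a zinc finger factor of mesothelium, read -3.67 and -3.96 at 4 h and 0.00 and -1.64 at 18 h and rose in the fit of 13 arrays (adjusted p = 0.0427). It was above background on 1 of the 4 h arrays, and its difference was 3.00 as scaled here and 1.356 after normexp background correction. Cldn15, a claudin, differed by 1.05. Of 20 acute phase genes measured, 4 (20%) were higher and 6 (30%) lower, near the shares of all features (19.6% and 33%). The mean over the list was 1.69, 1.32 and 1.14 on 3 arrays but 3.58 on 18 h replicate 1. Orm1, an orosomucoid made by liver, read -2.86 and -3.24 at 4 h, 1.85 on 18 h replicate 1 and -1.44 on replicate 2. Orm2 read -2.08 and -2.14 at 4 h, 3.06 on 18 h replicate 1 and -1.37 on replicate 2. The liver enzyme Cyp2c29 read -2.45 and -3.18 at 4 h, 2.55 on 18 h replicate 1 and -1.33 on replicate 2. For these liver genes 1 array carried most of the gap, the array on which all 27 liver markers were highest. Saa3, which lung cells make themselves, read 0.48 and 0.33 at 4 h and 2.57 and 1.54 at 18 h.

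Lists of lung structure differed from each other, against 33% of all features lower and 19.6% higher. Of 20 alveolar type 2 markers measured, 6 (30%) were lower and 5 (25%) higher, with a median difference of 0.07. Of 13 alveolar type 1 markers, 7 (53.8%) were lower and 2 (15.4%) higher. Their median difference was -0.39, near the -0.37 of all features with a mean level from 4 to 6. Gprc5a, a receptor of lung epithelium, read 7.94 and 7.91 at 4 h and 6.74 and 6.56 at 18 h. Of 17 genes of ion and water transport, 8 (47.1%) were lower and 3 (17.6%) higher, with Atp1b1, a sodium pump subunit, at -1.18. The club and goblet list had 5 of 19 in each direction. Reg3g, an antimicrobial lectin, and Bpifa1, a secreted airway protein, were higher by 1.63 and 1.39. Of 27 endothelial markers, 12 (44.4%) were lower and 7 (25.9%) higher. Gpihbp1, which holds lipoprotein lipase in capillaries, read 6.71 and 6.01 at 4 h and 5.20 and 4.63 at 18 h. Lyve1, a marker of lymphatic endothelium, differed by -1.69 and Sox18, a vascular transcription factor, by 1.31. The clotting initiator F3 differed by -1.24. Alox15, a lipoxygenase, read -3.74 and -3.42 at 4 h, -1.81 on 18 h replicate 1 and 1.095 on replicate 2, so here replicate 2 stood highest. Of 13 smooth muscle and pericyte markers, 7 (53.8%) were lower and 2 (15.4%) higher, with a median difference of -0.38. Rgs5, a pericyte marker above background on 1 of the 4 h arrays, rose by 1.58 in the fit of 13 arrays (adjusted p = 0.0391). In the alternatives run, the Rgs5 difference was as low as 0.58.

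Cytosolic ribosomal protein genes were lower on both late arrays in 26 of 29 (89.7%, against 33% of all features), none by as much as 1. Their median difference was -0.54, and that of all features with a mean above 6 was also -0.54. Rpl36 read 8.08 and 8.10 at 4 h and 7.34 and 7.002 at 18 h, Rpl37a differed by -0.81 and Rps15 by -0.80. In the authors' deposited table the median of the list was 0.04. Of 26 proteasome subunits, 15 (57.7%, against 33%) were lower and 4 (15.4%, against 19.6%) higher, with Psmc1 at -0.95. Their median difference was -0.305, near the -0.259 of all features with a mean level from 2 to 4.

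The 15 features per direction with the largest moderated t among those separated by at least 1 were named as well, whether or not a list holds them. On the lower side, where most belong to lists already described, these were Foxo3, Dbp, Fzd9, Tent5b, Pdk4, Nr1d2, Per1, Cypt4, Cirbp, Usp2, Nr1d1, Zbtb16, Fmnl2, Has1 and Sphk1. None passed in the fit of 4 arrays (adjusted p from 0.064 to 0.0803). Tent5b, a poly(A) polymerase, read 4.22 and 3.80 at 4 h and 1.35 and 1.34 at 18 h and fell by 2.67 in the fit of 13 arrays (adjusted p = 0.0268). Has1, a hyaluronan synthase, read 0.06 and 0.03 at 4 h and -1.97 and -1.76 at 18 h, and Sphk1, a sphingosine kinase, read 4.99 and 4.72 at 4 h and 2.95 and 2.97 at 18 h. Both fell in the fit of 13 arrays (adjusted p = 0.0452 and 0.0454). Fzd9, a Wnt receptor that was above background on neither 18 h array, was at least 2.00-fold lower, and Cypt4 was at least 2.42-fold lower. Fmnl2, a formin of the actin skeleton, differed by -1.88.

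On the higher side they were Defb6, Htr4, Olfr222, Dclk3, Ndst4, Ptprv, Mas1, Skint1, Ssxa1, Slc17a1, Acnat2, Avpr1a, Ttk, Mars2 and Wnt8a. Apart from Mars2, all of them lay above background on neither 4 h array and were kept through the 18 h arrays alone. Their rank therefore rests on readings at background and is no test of a change, and they are given as bounds. Defb6, a beta-defensin, read -6.44 and -6.38 at 4 h and -2.26 and -2.06 at 18 h, which bounds it at least 4.75-fold higher. The bounds of the other members below background at 4 h ran from 1.87 for Avpr1a to 5.39 for Olfr222. Dclk3, at least 2.57-fold higher, differed by only 0.293 after normexp background correction. Mars2, the mitochondrial methionyl-tRNA synthetase, read -3.69 and -3.999 at 4 h and -0.72 and -1.06 at 18 h. Of the 55 features that rose in the fit of 13 arrays, 28 were above background on neither 4 h array, so their calls too compare with readings at background. Among those measured at both times were Ogt, the enzyme that adds N-acetylglucosamine to proteins (rose by 1.40, adjusted p = 0.0369, on 1 probe, with 0.21 on the other), Tnfsf10, the death ligand TRAIL (1.42, adjusted p = 0.0365), and the transcription factors Sox2 (1.28, adjusted p = 0.0369) and Snai1 (1.26, adjusted p = 0.0454). Ramp3, a partner of the calcitonin-like receptor, read 3.39 and 2.61 at 4 h and 0.93 and 0.39 at 18 h and fell by 2.34 (adjusted p = 0.0369).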

How the data were processed

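Whole-lung RNA was labelled with Cy3 and hybridised to 1-colour Agilent mouse arrays of 62976 spots, and scanned images were quantified, with version 10.5.1.1 of Agilent Feature Extraction named in the submitters' processing notes. Per the file headers, the deposited scanner files hold an intensity for each spot: a mean signal, a background signal and a processed signal corrected for background. Flags of 0 or 1 in these files mark spots well above background and outliers. The authors' deposited table holds log2 values whose normalization is not given in the sources used here. Samples were grouped by the labels.

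In R 4.3.3, log2 of the processed signal minus the 75th percentile of the array was taken over 59305 non-control spots, outlier spots were dropped and spots averaged into 55681 probes. Probes well above background on both arrays of at least 1 group were kept (30151), and each gene took its brightest kept probe. Symbols came from RefSeq accessions (26582 probes) or the file's own symbols (3094), and 26005 probes have no current symbol. limma 3.58.1 (statmod 1.5.0) fitted the 4 arrays with empirical Bayes moderation, p-values were adjusted by Benjamini and Hochberg over 25212 features, and intervals are moderated 95% intervals. With 2 arrays against 2 an exact two-sided permutation test cannot go below p = 0.333, so none is given. Where all arrays of a group lay at background, a bound replaces the fold. The number of arrays limits the precision. The steps were tested on simulated data.

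Members and the 50 gene lists were chosen with earlier results of these data known. Named genes are the 15 features per direction with the largest moderated t among separated ones that differed by at least 1 (no feature passed), all members of the clock lists but those not reported here, and up to 4 members per other list with the smallest p. Members beyond this rule, the genes taken from the fit of 13 arrays and the liver markers were chosen after their values were seen. Replicate numbers share only a number: the replicate differences at 4 h and 18 h correlated with r = 0.193 over features.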

Additional observations from a re-analysis of the deposited data

How the results depend on the processing

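The count of called features was 0 with the 4 arrays and depended on which arrays set the spread. It was 169 (55 higher, 114 lower) with 13 saline arrays, 119 (42 and 77) with slide as a random block added, 40 (19 and 21) without the 1 h arrays, 119 (89 and 30) with 7 arrays of the slide, 1880 (546 and 1334) with 29 arrays and 26 (6 and 20) with all 31. It was 35 (3 and 32) with normexp background correction and 186 (64 and 122) with an intensity trend and robust moderation. With the replicate number as a block it was 842 (645 and 197), although the numbers were not shown to pair the arrays. Omitting 1 array gave 0 to 418, the highest without 18 h replicate 2. Of the core clock genes and output factors, 5 were called with normexp and 2 with 13 arrays, with or without the random block. That count was 3 without the 1 h arrays, 5 with 7 arrays, 10 with 29 and 0 with all 31. It was 6 with trend and robust moderation and 10 with the replicate block. The fits of 7, 29 and 31 arrays include oleic acid arrays, and the 29 leave out 2 arrays of poor quality.

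Features higher by at least 1 without overlap numbered 1498, and 194 with normexp, 888 with quantile normalization, 491 in the authors' deposited table, 5009 without the filter, 576 with probes above background on all 4 arrays and 1415 to 2961 when 1 array was omitted. Lower ones numbered 942, and 441 with normexp, 1956 with quantile normalization, 598 in the deposited table and 1003 to 1576 when 1 array was omitted. The cause of these shifts was not tested.

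Small differences turned sign. Under quantile normalization these were Bcl6 (0.052), Dusp1 (0.029), Fmo2 (0.314), Insig2 (0.117), Scgb1a1 (0.04), Sftpc (0, to 3 decimals) and Slc46a3 (0.109), and under normexp Insig2 (0.015). In the deposited table they were Dusp1 (0.142), Fmo2 (0.36), Insig2 (0.093), Rpl37a (0.142), Sftpc (0.082), Slc46a3 (0.086) and Sult1a1 (0.064). Averaging probes turned Hspa4 (0.362). With 1 array omitted in turn, the difference ran from -0.411 to 0.015 for Bcl6, -2.562 to 0.548 for Bhlhe41, -0.015 to 0.931 for Cys1, -0.501 to 0.235 for Fmo2, -0.364 to 0.351 for Insig2, -0.201 to 0.692 for Nampt, -0.479 to 1.044 for Nfil3, -0.255 to 0.112 for Slc46a3, -0.983 to 0.283 for Sult1a1 and -0.011 to 0.417 for Timeless. The other named genes kept their direction in the alternatives run. Dim signal, at or near background on the 4 h arrays for many higher features, limits what can be measured there.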
